A study of Homo sapiens with 4 samples.

Results

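A set of 10 subunits of the integrin adhesion receptors that epithelial cells can carry were followed in A549 cells, an established human lung adenocarcinoma line: the α subunits ITGA2, ITGA3, ITGA5, ITGA6 and ITGAV and the β subunits ITGB1, ITGB3, ITGB4, ITGB5 and ITGB6. They are found in the table by gene symbol and make up 10 of the 57905 genes of the deposited count table. All 10 passed a mean level of at least 1 CPM (counts scaled to a library of fixed size), as did 13966 genes in all. ITGB3 stood on 2 rows of the table. The row with the most counts was read, and the other held 0 counts. The study asked what DCBLD2, a transmembrane protein, does to gene expression in lung adenocarcinoma. RNA-seq was made from A549 cells in 4 conditions: scramble control, shDCBLD2, empty vector, and cells labelled DCBLD2 overexpression, whose library is called the overexpression-labelled library. There was 1 library per condition, so no replicate error can be given and no p-value is printed. The intervals given are 95% intervals for counting error only.

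By the study's methods, hairpins were carried by an H1-driven lentiviral vector with a puromycin marker and the DCBLD2 coding sequence by an EF1-driven one with blasticidin selection. The vector and drug of the control lines were not stated, nor whether the sequenced cells were these lentiviral lines. Which of the study's hairpins the shDCBLD2 library carried is not given by the labels. The scramble control against the empty vector shows how far 2 control libraries stood apart.

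An integrin is a dimer of 1 α and 1 β subunit, both of which cross the membrane. The head of the dimer grips extracellular matrix, and the short tails bind talin, kindlin and the actin skeleton, except that the long tail of ITGB4 binds plectin and, through it, keratin filaments. ITGB1 pairs with many α subunits: with ITGA2 it binds collagen, with ITGA3 and ITGA6 laminin, and with ITGA5 fibronectin. ITGAV pairs with ITGB1, ITGB3, ITGB5 or ITGB6 to bind ligands such as vitronectin, fibronectin and latent TGF-β, and ITGA6 with ITGB4 forms the core of the hemidesmosome, which anchors epithelial cells to the basement membrane.

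The coding sequence of 1 conserved site is shown for each subunit, with G and C in capitals, because the base composition of the transcripts moved with the counts, most in 1 of the comparisons below and less in the others. Sequences and positions are from GENCODE 29 transcripts on GRCh38, read 5′ to 3′ on the gene's strand. For the α subunits it is the stretch of the tail next to the membrane, where the β tail is held. This stretch lies in the last exon of ITGA2, ITGA5 and ITGAV, which have 30 exons, and in exon 25 of 26 of ITGA3 and ITGA6.
ITGA2, chr5:53090519-53090545, plus strand: CtCGGCttCttCaaaaGaaaatatGaa
ITGA3, chr17:50088225-50088251, plus strand: tGCGGCttCttCaaGCGaGCCCGCaCt
ITGA5, chr12:54396350-54396376, minus strand: CttGGattCttCaaaCGCtCCCtCCCa
ITGA6, chr2:172501772-172501798, plus strand: tGtGGtttCttCaaGaGaaataaGaaa
ITGAV, chr2:186677197-186677223, plus strand: atGGGCttttttaaaCGGGtCCGGCCa

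For the β subunits it is the stretch around the metal-binding site with which the head holds its ligand. It lies in exon 5 of 16 of ITGB1, exon 5 of 40 of ITGB4, and exon 4 of 15 of ITGB3, ITGB5 and ITGB6.
ITGB1, chr10:32928158-32928205, minus strand: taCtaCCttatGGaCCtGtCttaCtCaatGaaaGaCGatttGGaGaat
ITGB3, chr17:47284502-47284549, plus strand: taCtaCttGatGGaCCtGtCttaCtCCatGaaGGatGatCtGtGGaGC
ITGB4, chr17:75727783-75727830, plus strand: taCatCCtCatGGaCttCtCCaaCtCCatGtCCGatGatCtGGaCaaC
ITGB5, chr3:124848452-124848499, minus strand: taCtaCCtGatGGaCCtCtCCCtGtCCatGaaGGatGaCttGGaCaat
ITGB6, chr2:160195509-160195556, minus strand: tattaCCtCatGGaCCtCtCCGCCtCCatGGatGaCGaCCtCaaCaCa

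In the α stretches, 29.6% of the ITGA6 bases and 63.0% of the ITGA3 bases were G or C. Over the whole longest transcript, GC content ran from 38.3% in ITGAV, 40.0% in ITGB1, 40.1% in ITGB6, 40.2% in ITGA2 and 42.9% in ITGA6 to 52.3% in ITGB3, 54.3% in ITGB5, 58.7% in ITGA5, 60.9% in ITGA3 and 63.7% in ITGB4. A short stretch need not follow its transcript: 51.9% of the ITGAV stretch and 52.1% of the ITGB6 stretch were G or C.

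The libraries held between 16601633 and 21537283 counts on genes. DCBLD2 was read at 9859 counts in the scramble control, 4259 in shDCBLD2, 7970 in the empty vector and 4000 in the overexpression-labelled library. Its log2 ratio was -1.35 (-1.40 to -1.30) for shDCBLD2 and -0.84 (-0.90 to -0.79) for the overexpression-labelled library, so the latter went against its label. The 6 epithelial markers EPCAM, CDH1, KRT7, KRT8, KRT18 and KRT19 were all above 3 counts in every library, with summed levels from 12573 CPM in shDCBLD2 to 19220 CPM in the overexpression-labelled library. Bulk counts cannot tell fewer cells of a type from less RNA per cell.

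On the scale of deposited FPKM, which divides by exonic length and library total and so lets genes be compared, ITGB1 stood first in the 3 other libraries. It was at 162 FPKM in the scramble control, 179 in shDCBLD2, 143 in the empty vector and 90.7 in the overexpression-labelled library, where ITGA3 at 100.05 FPKM stood above it. ITGA3, ITGB5 and ITGB4 were above 16 FPKM in each library, and in shDCBLD2 ITGAV at 17.12 FPKM stood level with ITGB4 at 16.96. ITGA5, ITGA6 and ITGAV lay between 4.45 and 17.1 FPKM, and ITGA2, ITGB3 and ITGB6 at or below 5.08 FPKM everywhere.

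**Figure D1:**
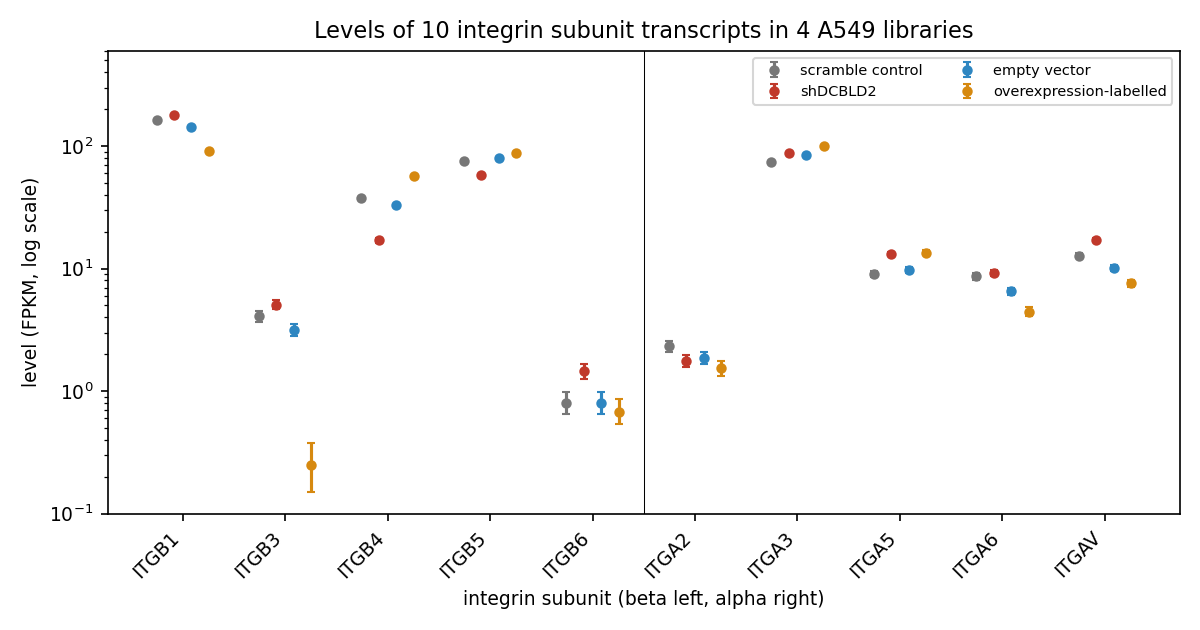
FPKM of the 10 integrin subunits on a log axis, β subunits left and α subunits right, with 1 point per library and 95% counting intervals as bars. ITGB3 drops to 0.25 FPKM in the overexpression-labelled library and lies between 3.16 and 5.08 FPKM in the other libraries, and ITGB4 runs from 16.96 FPKM in shDCBLD2 to 56.45 FPKM in the overexpression-labelled library.

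Several neighbours in this order could not be told apart by their counting intervals. These were ITGB5 and ITGA3 as well as ITGA5 and ITGA6 in the scramble control, ITGAV and ITGB4 as well as ITGA2 and ITGB6 in shDCBLD2, ITGAV and ITGA5 in the empty vector, and ITGB1 and ITGB5 in the overexpression-labelled library. Between the highest and the lowest library, ITGB3 differed 20.3-fold and ITGB4 3.33-fold. The other members differed between 1.36-fold (ITGA3) and 2.26-fold (ITGAV). The 5 members ITGA6, ITGAV, ITGB1, ITGB3 and ITGB6 were highest in shDCBLD2 and lowest in the overexpression-labelled library, and ITGB4 and ITGB5 were the other way round. Both of these libraries had fewer DCBLD2 counts than their controls did.

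The overexpression-labelled library was set against the empty vector to ask what the vector carrying DCBLD2 did. ITGB3, a β subunit that pairs with ITGAV to bind vitronectin and fibronectin, was read at 381 counts in the scramble control, 538 in shDCBLD2, 291 in the empty vector and 20 in the overexpression-labelled library. The last library stood far below the other 3. The log2 ratio of TMM-scaled counts (TMM being edgeR's scaling of libraries) was -3.60 (-4.44 to -3.06) against the empty vector, a 12.1-fold lower level. A gene was called higher or lower where the difference was at least 2-fold and the interval left out no change. ITGB3 was the 1 member of 10 called lower, where 5.35% of all genes were. No member was called higher, where 6.42% of all genes were. Against the scramble control, the log2 ratio of ITGB3 was -3.89 (-4.73 to -3.36), and it was again the 1 member called lower (8.98% of all genes), with none called higher (8.08% of all genes).

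ITGB1, the shared partner of most α subunits, was at 18957 counts in the scramble control, 23576 in shDCBLD2, 16440 in the empty vector and 9228 in the overexpression-labelled library. Its log2 ratio against the empty vector was -0.68 (-0.72 to -0.64). ITGA6, a laminin-binding subunit, was at 1105, 1333, 818 and 495 counts in the same order, with a log2 ratio of -0.57 (-0.74 to -0.41). Both were lowest in the overexpression-labelled library without reaching 2-fold.

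ITGAV was at 2001 counts in the scramble control, 3028 in shDCBLD2, 1557 in the empty vector and 1032 in the overexpression-labelled library, a log2 ratio of -0.44 (-0.55 to -0.33) against the empty vector. ITGA2, the collagen-binding subunit, had 349, 300, 276 and 201 counts and a log2 ratio of -0.30 (-0.57 to -0.04). ITGB6, which with ITGAV binds latent TGF-β, had 97, 199, 95 and 72 counts and a log2 ratio of -0.24 (-0.71 to 0.21). At this depth no difference was detectable for ITGB6.

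ITGB4, the hemidesmosome subunit, lay on the other side. It had 4859 counts in the scramble control, 2470 in shDCBLD2, 4152 in the empty vector and 6336 in the overexpression-labelled library, where it was highest, with a log2 ratio of 0.76 (0.71 to 0.82). Of the 6 epithelial markers, KRT19 at 1.53 and EPCAM at 1.18 were called higher in the same comparison, where 6.42% of all genes were. CDH1 at 0.56, KRT8 at 0.60 and KRT18 at 0.62 were higher without being called. KRT7 was lower, at -0.22 (-0.24 to -0.21), and the median of the 6 was 0.61. In the empty vector against the scramble control that median was -0.34. KRT8 was at -0.55 there, EPCAM at -0.50, KRT18 at -0.43, CDH1 at -0.24, KRT19 at 0.01 and KRT7 at 0.38. Summed levels of the 6 were 17547 CPM in the scramble control, 14842 in the empty vector and 19220 in the overexpression-labelled library. The part of these markers in the ITGB4 ratio was not tested. ITGA5, the fibronectin-binding subunit, had 1313, 2140, 1380 and 1698 counts and a log2 ratio of 0.45 (0.35 to 0.56). ITGA3 and ITGB5 had log2 ratios of 0.23 and 0.12, the former with 15465 counts in the empty vector and 16281 in the overexpression-labelled library and the latter with 9562 and 9342 counts before scaling. By the interval alone 4 members were above no change, where 31.9% of all genes were, and 5 were below it, where 36% of all genes were. The median log2 ratio was -0.27 over the members and -0.04 over all genes.

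The sign of these ratios went with the base composition of the transcripts, and that held for all genes. When 13690 genes with a GENCODE 29 transcript were split into 20 bins of GC content, the median log2 ratio of a bin rose from -0.64 at a median GC of 36.2% to 0.31 at 61.4%. The 5 members at or below 42.9% GC had negative ratios and 4 of the 5 members above it had positive ones, with ITGB3 the exception. After the median of the GC bin was taken off, ITGB3 was at -3.72, ITGB4 at 0.47, ITGA5 at 0.20, ITGA6 at -0.19 and ITGB1 at -0.15. The sign turned for ITGA2 (0.23), ITGAV (0.16), ITGB6 (0.29), ITGA3 (-0.08) and ITGB5 (-0.07). ITGB3 alone of the members lay outside the 10th to 90th percentile of its bin, as the lowest and the highest 10% of genes do by construction. ITGB3 remained called in all 9 alternatives tried. The one that summed its 2 rows could not differ, because the second row held 0 counts. What part GC content has in the other ratios was not tested.

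The shDCBLD2 library was set against the scramble control to ask what loss of DCBLD2 did. ITGB4 fell from 4859 to 2470 counts, a log2 ratio of -1.12 (-1.19 to -1.05), or 2.17-fold lower. It was the 1 member of 10 called lower, where 5.62% of all genes were. Against the empty vector as the control, at 4152 counts, the log2 ratio was -0.98 (-1.05 to -0.91), just short of 2-fold, so that no member was called lower (8.01% of all genes) or higher (2.23% of all genes) there. Taking off the median of genes of like GC left -1.01. No member was called higher, where 1.16% of all genes were.

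Most other members were somewhat higher in shDCBLD2 than in the scramble control. ITGB6 had the largest of these ratios, 0.88 (0.54 to 1.26), on 199 against 97 counts. ITGA5 was at 0.56 (0.46 to 0.66), ITGAV at 0.46 (0.37 to 0.54) and ITGB3 at 0.36 (0.16 to 0.55). None of the 4 reached 2-fold. ITGA3, with 18362 against 13818 counts, was at 0.27, ITGB1 at 0.17 and ITGA6 at 0.13. Besides ITGB4, ITGA2 at -0.36 (-0.59 to -0.13) and ITGB5 at -0.33, on 8096 against 9239 counts, were lower. Thus 7 members were above no change by their interval, where 29.8% of all genes were, and 3 were below it, where 27.1% of all genes were. Against the empty vector ITGA5, ITGA6, ITGAV, ITGB1, ITGB3 and ITGB6 were above no change by their interval, and ITGB4 and ITGB5 were below it. ITGA2 and ITGA3 were not told from no change. The share of all genes was not worked out by interval for this comparison, so how usual such intervals were cannot be said. In that comparison ITGA3 was at 0.01, ITGA2 at -0.11 (-0.35 to 0.13) and ITGB1 at 0.29, while ITGA6 was at 0.47, ITGAV at 0.73, ITGB3 at 0.65 and ITGB5 at -0.47.

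The median log2 ratio over the members was 0.22 and that over all genes 0.01. Here GC content moved little, with bin medians between 0.13 and -0.10, and no member changed sign when they were taken off. ITGA5, ITGB4 and ITGB6 lay outside the 10th to 90th percentile of their GC bins. By construction the lowest 10% and the highest 10% of the genes of each bin do so. Of the epithelial markers, CDH1, the gene of E-cadherin, was at 1050 counts in the scramble control and 220 in shDCBLD2. Its log2 ratio was -2.38 (-2.61 to -2.18). CDH1, EPCAM and KRT19 were called lower, 3 of the 6 markers, where 5.62% of all genes were. KRT8 at -0.79 and KRT18 at -0.86 were lower without being called, and KRT7 was higher, at 0.29 (0.27 to 0.30). The part of these markers in the ITGB4 ratio was not tested.

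**Figure D2:**
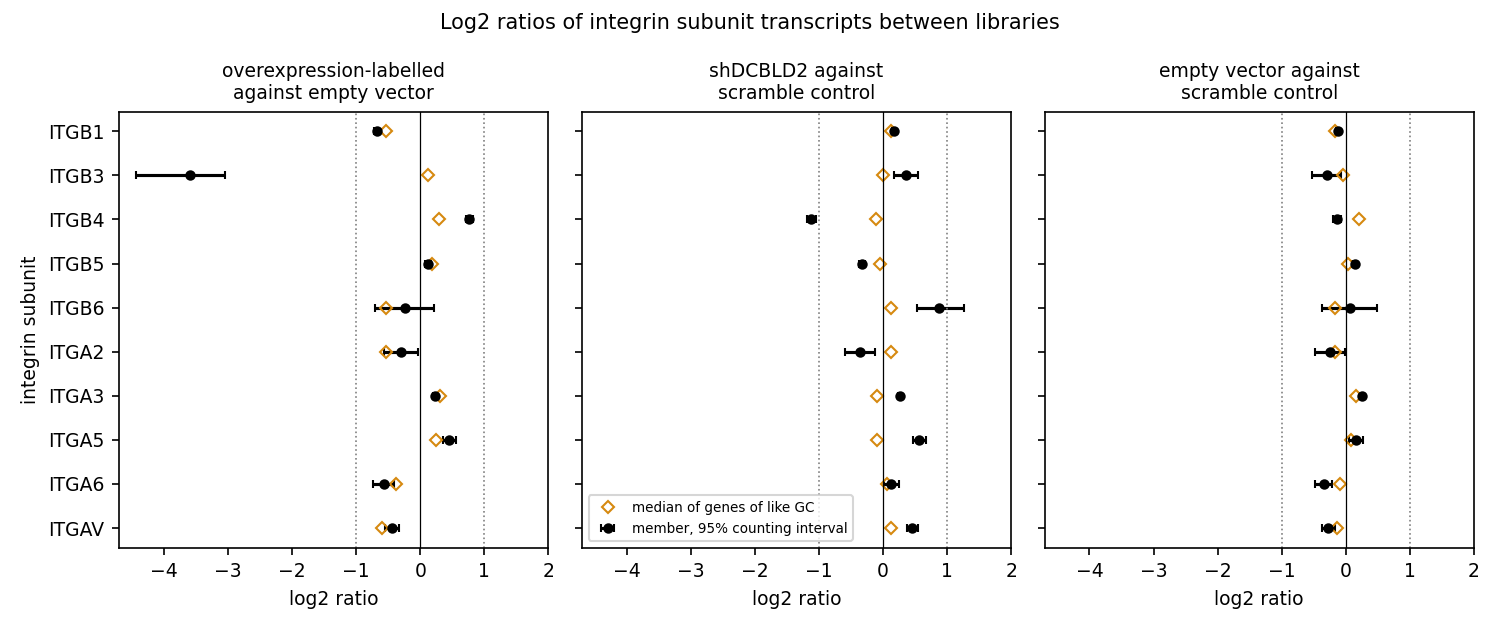
Log2 ratios of the 10 integrin subunits (black points, 95% counting intervals as bars) in 3 comparisons, with the median of all genes of like GC content as open diamonds and dotted lines at 2-fold. ITGB3 at -3.60 in the left panel and ITGB4 at -1.12 in the middle panel lie beyond the 2-fold lines, and in the right panel all members lie between -0.34 and 0.25.

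The 2 control libraries gave the size of difference seen without any change meant to touch DCBLD2. No member was called between the empty vector and the scramble control, where 2.22% of all genes were called higher and 1.89% lower. The ratios of the members ran from -0.34 for ITGA6 to 0.25 for ITGA3. Counting intervals nonetheless left out no change for 9 members, 3 above (26.7% of all genes) and 6 below (27.8% of all genes), so libraries with no change aimed at DCBLD2 differed by more than counting error. GC content and length moved with the ratios of all genes here too. The bin medians ran from -0.17 to 0.34 over GC content, and from 0.25 for the shortest genes to -0.32 for the longest. With the median of the GC bin taken off, ITGA3 was at 0.09 and ITGB1 turned from -0.11 to 0.06, and no other member changed sign. What part GC content and length have in these ratios was not tested. ITGB3 at -3.60, ITGB1 at -0.68, ITGB4 at 0.76 and -1.12, and ITGB6 at 0.88 were beyond the widest difference between the controls, that of ITGA6. Also beyond it were ITGA6 at -0.57 and ITGAV at -0.44 in the overexpression-labelled library, ITGA5 in both comparisons, and ITGA2, ITGAV and ITGB3 in shDCBLD2. Of these, ITGA2 in shDCBLD2 was within it when the empty vector was the control. Counting intervals reached inside it for ITGA2 (-0.59 to -0.13) and ITGB3 (0.16 to 0.55) in shDCBLD2, and for ITGAV (-0.55 to -0.33) in the overexpression-labelled library. Counting error thus cannot set these 3 apart from the control difference, itself -0.47 to -0.21. With the median of the GC bin taken off, the widest control difference was that of ITGB4, at -0.35. Then ITGB1 (-0.15), ITGA6 (-0.19), ITGAV (0.16) and ITGA5 (0.20) in the overexpression-labelled library lay within it. So did ITGAV in shDCBLD2 (0.33), while ITGA3 there (0.36) lay just beyond it.

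Shares of counts per kilobase were taken among ITGB3, ITGB5, ITGB6 and ITGB8, which are β partners of ITGAV. ITGB1, which pairs with ITGAV too, was left out of this set. It was at 162 FPKM in the scramble control, where ITGB5 was at 75.0 FPKM. Within the set ITGB5 held most, with 93.8% in the scramble control, 89.9% in shDCBLD2, 95.2% in the empty vector and 98.8% in the overexpression-labelled library. ITGB3 held 5.08% (4.58 to 5.57) in the scramble control, 7.84% (7.21 to 8.47) in shDCBLD2, 3.80% (3.38 to 4.23) in the empty vector and 0.278% (0.156 to 0.399) in the overexpression-labelled library. ITGB6 held 2.24% (1.94 to 2.55) in shDCBLD2 and between 0.773% and 1.00% elsewhere. The ratio of ITGAV to ITGB3 in FPKM was 3.14, 3.37 and 3.20 in the scramble control, shDCBLD2 and the empty vector, and 30.9 (19.9 to 50.8) in the overexpression-labelled library.

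Among the α subunits that can pair with ITGB1, ITGA3 held the largest share in every library, from 67.3% in shDCBLD2 to 76.0% in the overexpression-labelled library. ITGA6 held 7.93% in the scramble control, 7.15% in shDCBLD2, 5.71% in the empty vector and 3.38% in the overexpression-labelled library. ITGAV held 11.7%, 13.3%, 8.87% and 5.75% in the same order. The ratio of ITGA3 to ITGB1 in FPKM was 0.456, 0.487 and 0.588 in the first 3 libraries and 1.10 (1.07 to 1.13) in the overexpression-labelled library. ITGA3 is GC-rich and ITGB1 GC-poor. In that library set against the empty vector their log2 ratios were 0.23 and -0.68. With the median of the GC bin taken off they were -0.08 and -0.15. The part of the GC trend in the ratio of ITGA3 to ITGB1 was not tested.

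Of all β subunits, ITGB1 held 57.6% in the scramble control, 68.3% in shDCBLD2, 54.9% in the empty vector and 38.2% in the overexpression-labelled library. ITGB4 held 13.4%, 6.49%, 12.6% and 23.7%. The hemidesmosome pair was uneven: ITGA6 stood to ITGB4 in FPKM as 0.229 (0.215 to 0.245) in the scramble control, 0.544 (0.509 to 0.582) in shDCBLD2, 0.199 (0.184 to 0.214) in the empty vector and 0.0788 (0.0718 to 0.0864) in the overexpression-labelled library. Since ITGA6 has 42.9% GC and ITGB4 63.7%, this ratio sets a GC-poor against a GC-rich transcript, and the part of the GC trend in it was not tested.

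**Figure D3:**
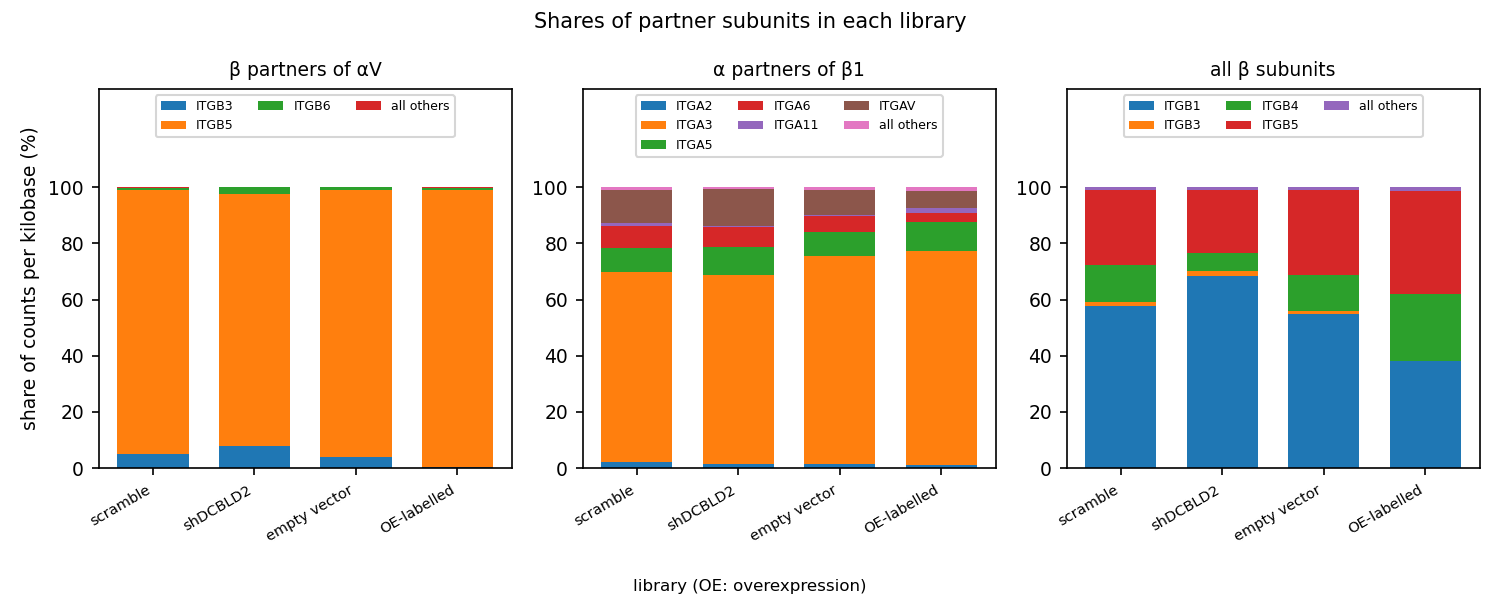
Stacked shares (%) of counts per kilobase in 4 libraries for the β partners of ITGAV other than ITGB1, the α partners of ITGB1 and all β subunits. The ITGB3 band of the left panel is 7.84% in shDCBLD2 and 0.278% in the overexpression-labelled library, and the ITGB4 band of the right panel is 6.49% and 23.7%.

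Some counts can be shared with other genes. ITGB1P1, a processed copy of ITGB1, held 5.55% of the counts of both in the scramble control, 5.83% in shDCBLD2, 6.34% in the empty vector and 6.31% in the overexpression-labelled library, and had a log2 ratio of -0.69 (-0.83 to -0.55) there, close to that of ITGB1. In all, 8 members overlap another entry of the table, 4 of them one with at least 10 counts. For ITGB4 this is GALK1 on the opposite strand, with 1932 counts in the scramble control, 1836 in shDCBLD2, 2459 in the empty vector and 2690 in the overexpression-labelled library. For ITGB3 it is EFCAB13 on the same strand, with at most 44 counts, and for ITGB1 RP11-462L8.1 on the opposite strand, with between 147 and 527. For ITGA6 it is AC093818.1 on the opposite strand, with at most 13. Whether counting used the strand is not stated, so reads of such pairs cannot be told apart.

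Of the 16 other integrin subunits, many of them known best from muscle, stroma or blood cells, 11 passed the filter. Of these, 4 were called higher in the overexpression-labelled library against the empty vector, where 6.42% of all genes were: ITGA11, a collagen-binding subunit of fibroblasts, at 2.37 (1.97 to 2.88) on 239 against 50 counts, ITGAX, a leukocyte subunit, at 2.12, ITGA7, a laminin-binding subunit of muscle, at 1.82, and ITGB8, a partner of ITGAV, at 1.77. ITGA10 was called lower at -1.16, where 5.35% of all genes were. In shDCBLD2 against the scramble control ITGA11 (-1.53), ITGAX (-1.34) and ITGA10 (-1.21) were called lower (5.62% of all genes) and none higher (1.16% of all genes). ITGA11 was lower in the empty vector than in the scramble control too, at -1.16. All of these were far scarcer than the main epithelial subunits, with at most 239 counts for ITGA11. ITGB8 held at most 0.171% of the β partners of ITGAV other than ITGB1.

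Markers of other cell types were far below the epithelial ones in sum. The 9 listed markers found of endothelium and platelets, in which ITGB3 is abundant, summed to between 6.07 and 13.0 CPM, with 3 or 4 above 3 counts. VWF, KDR and GP9 were at 0 counts in every library. ITGA2B had 61 counts in the scramble control, 42 in shDCBLD2, 96 in the empty vector and 97 in the overexpression-labelled library. GP1BA had 111, 80, 58 and 93 counts in the same order, and PF4 had 11, 6, 25 and 14. Fibroblast markers summed to between 73.2 and 138 CPM, with 6 of 10 above 3 counts in 3 libraries and 8 of 10 in the overexpression-labelled library, and FBLN1 made up most of the sum. COL3A1 (68 against 6 counts, log2 ratio 3.29) and COL6A3 (77 against 20 counts) were called higher in the overexpression-labelled library than in the empty vector (6.42% of all genes). POSTN was at 42 against 0 counts. DCN was at 4 against 0 counts, LUM at 1 against 0, PDGFRA at 11 against 9, PDGFRB at 10 against 8, and FAP at 0 in both. THY1, at 114 against 160 counts, was not called, and was called higher between the controls, at 1.39. ITGA11 and COL1A2, not on this list, were called higher too, and both were called lower in the empty vector than in the scramble control. Blood cell markers, which include ITGAL, ITGAM and ITGB2, summed to between 10.6 and 36.8 CPM, with 4 or 5 of 10 above 3 counts and PTPRC at 0. CD14 was called lower in shDCBLD2 than in the scramble control, at -1.06 on 75 against 144 counts. The 7 listed markers of the cells in which the lentivirus was made summed to between 56.5 and 79.7 CPM, with 6 or 7 above 3 counts. Of these, NEFM (221 against 0 counts), NEFL (log2 ratio 1.75) and LIN28B (1.62) were called higher in the overexpression-labelled library, and INA was called lower (-1.12, on 227 against 550 counts). The part of such cells in the integrin ratios was not tested.

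Among the 6 lists of other integrin adhesion genes, 89 of 99 passed the filter. In the overexpression-labelled library 13 of them were called higher (14.6%, beside 6.42% of all genes) and 3 lower (3.37%, beside 5.35%). In shDCBLD2 3 were called higher (3.37%, beside 1.16%) and 6 lower (6.74%, beside 5.62%), and between the controls 1 higher (1.12%, beside 2.22%) and 5 lower (5.62%, beside 1.89%). The medians of the 89 log2 ratios were 0.13, 0.08 and -0.03.

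Of 25 matrix ligands, 7 were called higher and 2 lower in the overexpression-labelled library, beside 6.42% and 5.35% of all genes. FN1, the gene of fibronectin and a ligand of ITGA5 with ITGB1 and of ITGAV with ITGB3, was at 21915 counts in the scramble control, 15348 in shDCBLD2, 6644 in the empty vector and 38672 in the overexpression-labelled library. The empty vector was the lowest of the 4 libraries here. The log2 ratio was 2.69 (2.66 to 2.73) against the empty vector, beside -1.63 between the controls. VTN, the gene of vitronectin, was at 2.30 (2.15 to 2.47) on 1714 against 385 counts. Among β subunits that pair with ITGAV, ITGB3 was at -3.60, ITGB1 at -0.68, ITGB6 at -0.24, ITGB5 at 0.12 and ITGB8 at 1.77. In the overexpression-labelled library ITGB5 had 9342 counts and ITGB3 had 20.

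TNC, the gene of tenascin-C, was called higher in both comparisons, at 2.56 on 294 against 54 counts in the overexpression-labelled library and at 1.55 on 195 against 59 counts in shDCBLD2. NID1, which links laminin to collagen IV, was at 2.12. LAMA1 and COL1A2 were at 0 counts in the empty vector and 111 and 67 counts in the overexpression-labelled library, at least 41.1-fold and 24.8-fold higher when set against 3 counts. SPP1, the gene of osteopontin and another ligand of ITGAV with ITGB3, was called lower at -1.31.

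Laminin chains, which assemble into ligands of ITGA3 with ITGB1 and of ITGA6 with ITGB4, differed in both directions. In the overexpression-labelled library LAMA3 was called lower at -1.73 (-2.01 to -1.48) on 151 against 562 counts. LAMB3 was called higher at 1.77 (1.63 to 1.92) on 1581 against 515 counts. In shDCBLD2 LAMA3 was at 0.31 and LAMB3 at -0.94, and neither was called. THBS1, the gene of thrombospondin-1, was called higher there, at 1.02, and VTN and COL1A2 were called lower. Between the controls MFGE8 was called higher, at 1.09, and FN1 and COL1A2 lower.

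Inside the cell, 29 activators and adaptors passed the filter. By the interval alone 10 were above no change in the overexpression-labelled library, where 31.9% of all genes were. A further 14 were below it, where 36% of all genes were. TNS1, a tensin that binds β tails, was the 1 called in that library, 2.83-fold higher, where 6.42% of all genes were called higher. Its log2 ratio was -1.53 between the controls. PTK2B, a kinase related to focal adhesion kinase, was the 1 called in shDCBLD2, where 5.62% of all genes were called lower. It was at -1.45 (-1.65 to -1.28) on 343 against 856 counts. The median log2 ratios of the list were -0.07 in the overexpression-labelled library, 0.22 in shDCBLD2 and -0.17 between the controls. TLN1, the gene of talin, was at 0.04 and -0.07 in the first 2 of these comparisons. FERMT2, the gene of kindlin-2, was at -0.60 and 0.69 without being called.

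None of the 11 genes of integrin inactivation and trafficking past the filter was called in any of the 3 comparisons, with medians of 0.03, -0.03 and -0.04, and none of the 9 membrane partners, with medians of 0.39, 0.14 and 0.31. With lists this short, 0 calls lie near the share called over all genes. Of the 4 hemidesmosome genes past the filter, COL17A1, the gene of collagen XVII, was called higher in the overexpression-labelled library (6.42% of all genes). It was at 2.05 on 54 against 13 counts. Between the controls it was called lower (1.89% of all genes), at -1.10, on 13 against 32. PLEC, the gene of the plectin that binds the ITGB4 tail, was at 0.29 and 0.09 in the overexpression-labelled library and in shDCBLD2, where ITGB4 was at 0.76 and -1.12. In the same order DST was at -0.30 and -0.33 and CD151 at 0.55 and -0.05, without being called.

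The genes whose profile over the 4 libraries lay nearest to that of ITGB3, by the Euclidean distance between centred log2 CPM, were ANXA10 (0.50), CDH19 (0.82), FPR1 (0.87), PART1 (0.92) and FAM196A (1.04). ANXA10 had 443 counts in the scramble control, 408 in shDCBLD2, 235 in the empty vector and 15 in the overexpression-labelled library. Like ITGB3, all 5 were lowest in the last of these, where they had between 2 and 15 counts. Nearest to ITGB6 were ALG6 (0.05), EOGT (0.07), PARP11 (0.09), PTRF (0.10) and CYR61 (0.11), all highest in shDCBLD2. Of these CYR61, a matrix protein that integrins bind, had 1394, 2939, 1456 and 996 counts in the order used above. Over 4 libraries many genes can share such a profile.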

How the data were processed

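Poly(A) RNA of A549 cells in 4 conditions was sequenced, with 1 library per condition. The authors deposited raw read counts per gene, and FPKM values that equal counts divided by the exonic gene size in kilobases and by the library total. The exonic gene size is a deposited column of another unit, in bases. The labels name mm9, a mouse build, for these human samples, the files name none, and the aligner and counter are not given in the sources used here, so deposited coordinates are not printed.

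From the counts, TMM factors came from edgeR 4.0.16 in R 4.3.3, and DESeq2 1.42.0 gave size factors as an alternative. Python 3.11.15 did the rest. Log2 ratios used a prior count of 2, scaled to the library. Intervals for ratios are exact (Clopper-Pearson), and for shares approximate. The filter was a mean of 1 CPM, the call 2-fold, and the floor 3 counts. GC content is that of each gene's longest GENCODE 29 transcript, preferring protein-coding ones, and 98.0% of the filtered genes had one. ITGB3 and ITGB6 were compared with every filtered gene for likeness of profile. Named genes are the members, the called genes of each list, and genes that pair with or bind a member, some of these picked after seeing values. Members and lists were chosen with earlier results of these data known. The lists were other integrin subunits, ligands, activators and adaptors, inactivation and trafficking, hemidesmosome, membrane partners, and markers of epithelial, endothelial and platelet, fibroblast, blood and 293T-like cells, 293T being the line in which the lentivirus was made. Scripts were tested on simulated data. The values of 1 listed gene are not reported here.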

Additional observations from a re-analysis of the deposited data

How the results depend on the processing

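No paired analysis was possible because each condition has 1 library. With 1 library each, line, clone and condition cannot be told apart, and the low counts of ITGB6, and of ITGB3 in 1 library, limit their ratios. The direction of ITGB3 in the overexpression-labelled library and of ITGB4 in shDCBLD2 held in all alternatives run: other scaling, prior counts, control library, drawing counts down to the smallest total and, chosen after seeing the data, centring on genes of like GC or like length. For ITGB3 its 2 rows were also summed, which could not alter the value because the second row held 0 counts. ITGB3 ranged from -3.89 to -3.45, and ITGB4 from -1.16 to -0.98. With the other control library ITGB4 was not called, which leaves 0 members called lower in shDCBLD2.

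With the scramble control in place of the empty vector, 1254 genes rather than 747 and 6 adhesion genes rather than 3 were called lower in the overexpression-labelled library. With the empty vector as the control of shDCBLD2, 311 genes rather than 162 and 7 adhesion genes rather than 3 were called higher, and 3 adhesion genes rather than 6 lower. Past 1.5-fold, 1 member (ITGB4) was called higher and 2 lower in the overexpression-labelled library, and 1 (ITGB6) higher in shDCBLD2. At that threshold the calls over all genes were 1789 higher and 2484 lower in the overexpression-labelled library, 689 and 1618 in shDCBLD2, and 987 and 932 between the controls. Those of the adhesion genes were 21 and 11, 13 and 17, and 4 and 10. With no filter, 1873 genes were called higher in the overexpression-labelled library, 417 higher and 1272 lower in shDCBLD2, and 594 higher and 524 lower between the controls, with 4 adhesion genes higher. With a mean of at least 5 CPM the calls were 339 higher and 493 lower, 60 and 337, and 96 and 84, and among adhesion genes 7 higher, 3 lower and 3 lower. Centred on genes of like GC, 256 genes were called lower in the overexpression-labelled library, and 0 adhesion genes higher between the controls. Fewer or more genes tested and another threshold set most of these counts, and the cause of the rest was not tested.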
